A study of Mus musculus with 16 samples.

Results

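Expression of 10 markers of lipid-associated macrophages (Trem2, Tyrobp, Clec7a, Gpnmb, Itgax, Cd9, Tm4sf19, Lgals3, Apoe and Spp1) was examined in subcutaneous (SAT) and visceral (VAT) fat. Entries of the expression table were taken where their RefSeq identifier belongs to one of these symbols, which gave 27 of 130343 entries, and the counts of each gene were summed. The mice were male wild-type C57BL/6J. Lean mice (n = 4) stayed on a normal laboratory diet and obese mice (n = 4) received a high-fat diet with 42% of its energy from fat and 0.2% cholesterol, in both cases from 10 weeks of age for 12 to 14 months. Inguinal SAT (left and right pads combined) and mesenteric VAT of each mouse gave 1 poly(A) RNA library per tissue, 16 libraries in 4 groups of 4. Whole tissue was sequenced with visible vessels removed, so in every result below more cells of a type and more RNA per cell cannot be told apart.

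Lipid-associated macrophages are macrophages that gather around stressed or dying fat cells in obese adipose tissue, take up their lipid and break it down in lysosomes. Trem2, a surface receptor that binds lipids and lipoproteins, signals through the adaptor Tyrobp (DAP12) and is known to be needed for this state in obese fat. The other genes used to recognise the state code for surface, lysosomal and secreted proteins, and several of them are also made by other cells.

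The SAT libraries held 4604460 to 16614407 counts each, and the VAT libraries 1256082 to 15802634. The replicate 1 libraries of lean and of obese VAT were the shallowest of their groups, with 1256082 and 2247737 counts. Levels are given as CPM, read counts scaled to the library total, after a further scaling by trimmed mean of M values (TMM), and 1 count stood for 0.0602 to 0.796 CPM before that scaling. The tissues carried their labels: the adipocyte list summed to at least 7814 CPM in every library, and the mesothelium list to 251 to 607 CPM in lean VAT and 298 to 366 in obese VAT, against at most 1.41 in SAT.

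The depth behind the markers was uneven. Tyrobp, Gpnmb and Cd9 have 1 entry each and held 84.4% of the 77605 counts on the markers. The other 7 genes have several entries, and 8 of the 27 entries were listed at 0 in all 16 libraries, among them an entry each of Trem2 (NM_031254), Lgals3 (NM_010705) and Apoe (NM_009696) and 4 of the 5 entries of Spp1. Total counts over all libraries were 208 for Trem2, 196 for Clec7a, 471 for Tm4sf19, 801 for Apoe, 1447 for Lgals3 and 24 for Spp1, against 8985 for Itgax, 11612 for Tyrobp, 22884 for Gpnmb and 30977 for Cd9. The sources do not say how a read that fits several transcripts was counted, so low counts of a gene with several entries are not read as low expression, and levels are compared between groups and not between genes.

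In VAT, 7 of the 10 markers rose in obese mice relative to lean mice: Tm4sf19, Gpnmb, Trem2, Itgax, Lgals3, Tyrobp and Cd9. The log2 fold changes (logFC) ran from 1.00 for Cd9 to 5.01 for Tm4sf19, and 6 of the 7 exceeded 1.5. Among all 12186 features tested, 6.88% rose at the same limit (edgeR, adjusted p below 0.05) and 2.25% rose beyond a logFC of 1.5. No marker fell, by edgeR at an adjusted or an unadjusted p below 0.05 or by DESeq2, while 5.28% of all features fell. Spp1 did not pass the filter on low values (CPM above 1 in at least 3 libraries), while Trem2 passed it with 4 obese VAT libraries and 1 lean one, and Tm4sf19 with obese libraries alone. Both had to differ to enter the test, so their calls are descriptions, here and in every comparison below that sets an obese group where they are high against a lower one. The 7 markers that pass the filter in lean libraries alone (Tyrobp, Gpnmb, Itgax, Cd9, Lgals3, Apoe and Clec7a) had a median logFC of 1.77, beside -0.02 over all features, and 5 of these 7 rose. With no filter on low counts all 10 markers were tested, and 7 rose in VAT and 6 in SAT (edgeR), beside 2.8% and 2.99% of the 31421 features of that fit. There the standard error (SE) of Gpnmb in VAT was 0.17 instead of 0.43, so the calls of that fit are descriptions.

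The receptor group comprised Trem2, its adaptor and Clec7a. Tyrobp (chromosome 7, 30113170 to 30117010, plus strand, GRCm39) had 38.6, 44.9, 41.9 and 39.5 CPM in lean VAT, replicates 1 to 4, and 101, 138, 114 and 209 CPM in obese VAT. Every obese library lay above every lean one, and the lean libraries lay close together. The logFC was 1.77 (SE 0.20, edgeR adjusted p = 3.69e-06).

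Trem2 (chromosome 17, 48653429 to 48661175, plus strand) was sparse. It had 4, 4, 0 and 2 counts in lean VAT and 6, 50, 24 and 70 counts in obese VAT, which is 2.66, 0.238, 0 and 0.219 CPM against 2.29, 4.03, 2.24 and 5.81 CPM. The groups overlapped through the shallow lean replicate 1, where 4 counts already amount to 2.66 CPM. As a description, since Trem2 entered the test through obese VAT, the logFC was 3.59 (SE 0.64, edgeR adjusted p = 7.43e-04), and 4.39 without that mouse.

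Clec7a (dectin-1, a receptor for beta-glucans of fungal walls, chromosome 6, 129438554 to 129449742, minus strand) had 0.666, 1.25, 1.18 and 0.768 CPM in VAT from lean mice and 3.43, 1.94, 1.77 and 2.82 CPM in VAT from obese mice. The obese libraries were all above the lean ones, with 9 to 34 counts each, yet the logFC of 1.16 (SE 0.45) did not pass the test (edgeR adjusted p = 0.101). Of its counts, 72.4% lay on NR_132130, a noncoding transcript, and this entry taken alone had a logFC of 1.77 in VAT (SE 0.53, edgeR adjusted p = 0.0324), also as a description, since it passed the filter only with obese libraries. The coding entry, NM_001309637, did not pass the filter, with 0, 11, 2 and 5 counts in lean VAT and 0, 2, 3 and 9 in obese VAT.

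The surface and lysosomal proteins comprised Gpnmb, Itgax, Tm4sf19 and Cd9, and all 4 rose. Gpnmb, a transmembrane glycoprotein of lysosomes and melanosomes (chromosome 6, 49013426 to 49047863, plus strand), had 26.6, 19.8, 33.3 and 26.2 CPM in VAT from lean mice and 226, 240.3, 194 and 1033 CPM in VAT from obese mice. All obese libraries lay above all lean ones, and obese replicate 4 stood far above the other obese libraries. The logFC was 4.01 (SE 0.43, edgeR adjusted p = 2.30e-06) and 3.08 without that mouse.

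Itgax (CD11c, an integrin chain of macrophages and dendritic cells, chromosome 7, 127728668 to 127749829, plus strand) had 20.0, 18.2, 11.5 and 16.5 CPM in VAT from lean mice and 129, 108.9, 91.9 and 229 CPM in VAT from obese mice. The groups were well apart, and the logFC was 3.12 (SE 0.32, edgeR adjusted p = 1.62e-06).

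Tm4sf19, a multi-pass membrane protein (chromosome 16, 32219324 to 32228057, plus strand), was listed at 0 in lean VAT replicates 1 to 3 and had 7 counts (0.768 CPM) in replicate 4. Obese VAT had 20, 61, 55 and 117 counts, or 7.62, 4.92, 5.13 and 9.71 CPM. The logFC of 5.01 (SE 0.64, edgeR adjusted p = 1.80e-05) is set by a single lean library. Without lean replicate 4 the remaining lean libraries hold no count, and obese VAT was at least 62.9-fold higher than the 0.109 CPM that 3 counts over these lean libraries would give.

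Cd9, a tetraspanin made by many cell types (chromosome 6, 125437210 to 125471778, minus strand), had 103, 160, 130.4 and 166 CPM in VAT from lean mice and 197, 237, 209.8 and 478 CPM in VAT from obese mice. The obese libraries were all higher, with a logFC of 1.00 (SE 0.22, edgeR adjusted p = 0.00451) that fell to 0.63 without obese replicate 4.

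Of the secreted proteins, Lgals3 rose and Apoe did not pass the test. Lgals3, the galectin that macrophages release (chromosome 14, 47605208 to 47623624, plus strand), had 7.99, 2.74, 1.29 and 2.74 CPM in VAT from lean mice and 30.1, 15.7, 11.9 and 20.0 CPM in VAT from obese mice, with no overlap and a logFC of 2.75 (SE 0.38, edgeR adjusted p = 4.68e-05). Apoe, the lipoprotein component that carries lipid out of macrophages (chromosome 7, 19430034 to 19434947, minus strand), had 5.05 ± 1.76 CPM in lean VAT and 6.11 ± 1.45 CPM in obese VAT (SD, n = 4 each). The Apoe libraries overlapped, with a logFC of 0.43 (SE 0.29, edgeR adjusted p = 0.386), and none of its 4 tested entries passed the test in either tissue.

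Spp1 (osteopontin, a secreted phosphoprotein, chromosome 5, 104582165 to 104589235, plus strand) had 0, 0, 0 and 2 counts in lean VAT and 2, 0, 3 and 15 counts in obese VAT, with 1 count in each SAT group. Of the 20 counts in obese VAT, 15 came from replicate 4. A difference was not detectable at this depth: with no filter on low counts the edgeR adjusted p for VAT was 0.171.

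**Figure D1:**
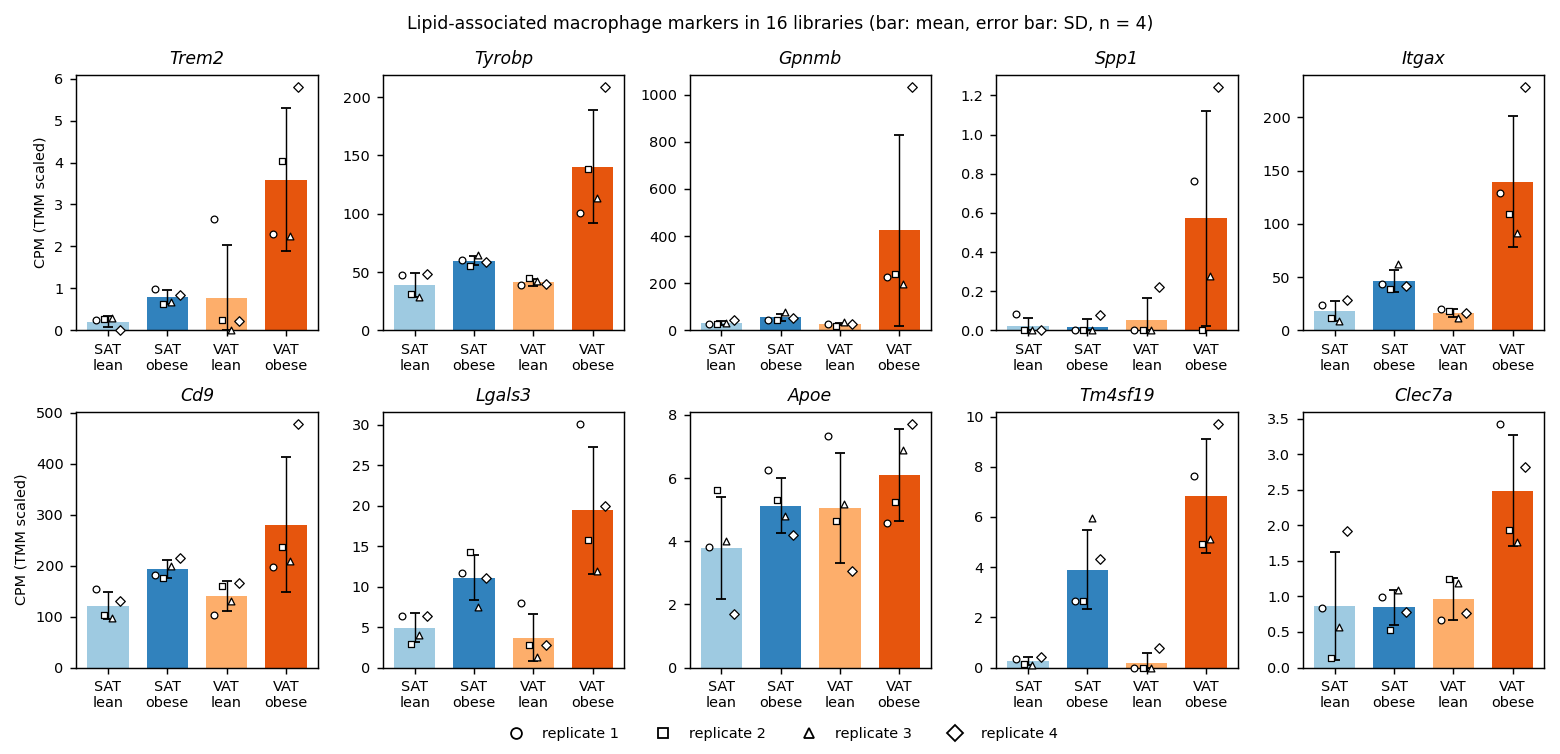
Level of each marker (vertical axis, TMM-scaled CPM on a linear scale that starts at 0 and differs between panels) in the 4 groups, with bars for the mean of 4 libraries, error bars for the SD (stopped at 0 where the SD exceeds the mean) and a symbol per replicate. Obese VAT is the highest bar in all 10 panels, and the diamond of replicate 4 is its highest library for 8 of the 10 markers.

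The stretch of genome before the start site is shown for the markers that rose beyond a logFC of 1.5 in VAT and whose RefSeq promoter window has at least 200 bases before the GENCODE gene start. RefSeq windows (table on GRCm38.p6, placed on GRCm39 by exact match) exist for 9 of the markers, and none for Tyrobp. Capitals mark letters that match GAGGAA (core of the site of PU.1, the macrophage lineage factor) or TGANTCA (the AP-1 site) on either strand, and the third motif searched, TCANGTG (the M-box of the lysosomal MiT factors), has no match here. The Trem2 window is chr17:48653179-48653428, that of Gpnmb chr6:49013202-49013425 and that of Tm4sf19 chr16:32219074-32219323, all on the plus strand.
Trem2: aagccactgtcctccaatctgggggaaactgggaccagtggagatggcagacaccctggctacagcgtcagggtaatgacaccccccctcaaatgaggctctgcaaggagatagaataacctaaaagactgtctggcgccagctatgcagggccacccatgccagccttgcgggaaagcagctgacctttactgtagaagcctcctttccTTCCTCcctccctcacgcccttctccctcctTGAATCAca
Gpnmb: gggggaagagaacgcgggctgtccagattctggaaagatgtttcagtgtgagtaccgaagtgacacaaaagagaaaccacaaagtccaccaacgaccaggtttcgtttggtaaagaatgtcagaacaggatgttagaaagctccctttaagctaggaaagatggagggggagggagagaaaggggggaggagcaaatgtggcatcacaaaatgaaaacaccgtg
Tm4sf19: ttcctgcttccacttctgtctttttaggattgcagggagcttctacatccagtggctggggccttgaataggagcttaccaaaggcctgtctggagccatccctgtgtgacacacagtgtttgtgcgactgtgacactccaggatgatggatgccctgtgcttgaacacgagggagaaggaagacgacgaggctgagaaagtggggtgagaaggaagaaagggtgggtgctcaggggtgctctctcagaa

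The Trem2 window holds both a PU.1 core, TTCCTC, starting 40 bases before the start site and an AP-1 match, TGAATCA, starting 9 bases before it. The windows of Gpnmb and Tm4sf19 hold none of the 3 motifs. The 9 markers with a window have 13 windows in all, some of which overlap. Of these, 6 windows held the PU.1 core (of Trem2, Spp1, Apoe and Clec7a), 2 the AP-1 site (of Trem2 and Itgax) and 1 the M-box (of Lgals3). Among 32851 single RefSeq promoters of the same length, 23.3%, 6.75% and 12.2% hold these motifs. A match is a description of the letters, and no factor was measured here.

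In SAT, 4 of the 10 markers rose in obese mice: Tm4sf19, Itgax, Lgals3 and Tyrobp. Among all features tested, 6.35% rose, and 1.36% rose beyond a logFC of 1.5. Of the markers that rose only Tm4sf19 exceeded this, and since it entered the test through obese libraries alone its call is a description here too. Of the 7 markers that pass the filter in lean libraries alone, 3 rose in SAT, with a median logFC of 0.67, beside 0.00 over all features. Again no marker fell in SAT, by edgeR at an adjusted or an unadjusted p below 0.05 or by DESeq2, beside 5.25% of all features. The number of markers that rose was 2 without lean replicate 2, without lean replicate 3 or without obese replicate 2, where Tm4sf19 and Itgax passed the test in each case.

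Tm4sf19 had 4, 1, 1 and 2 counts in lean SAT and 35, 25, 87 and 56 counts in obese SAT, or 0.249 ± 0.157 CPM against 3.90 ± 1.58 CPM (SD, n = 4 each). The groups did not overlap, and the logFC was 4.00 (SE 0.62, edgeR adjusted p = 1.89e-04). Tested entry by entry, 8 of the 14 marker entries that passed the filter pass it in lean libraries alone, and of these 3 rose in SAT and 5 in VAT, beside 6.21% and 6.84% of all entries tested. The tested entries of Tm4sf19 passed it through obese libraries, and their logFC values, again a description, were 4.61 in SAT and 5.72 in VAT for NM_001160402 and 3.13 and 4.22 for XM_006522221.

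Itgax had 23.3, 11.4, 9.08 and 28.4 CPM in lean SAT and 43.0, 38.6, 62.0 and 41.4 CPM in obese SAT. All obese libraries were higher, with a logFC of 1.38 (SE 0.30, edgeR adjusted p = 0.00461).

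Lgals3 had 6.40, 2.95, 4.01 and 6.40 CPM in lean SAT and 11.7, 14.3, 7.46 and 11.0 CPM in obese SAT (logFC 1.17, SE 0.33, edgeR adjusted p = 0.0262). Tyrobp had 47.5, 31.2, 29.0 and 48.4 CPM in lean SAT and 60.6, 55.0, 64.3 and 58.8 CPM in obese SAT (logFC 0.62, SE 0.19, edgeR adjusted p = 0.0380). Neither gene's groups overlapped, although both passed the test by a small margin, with adjusted p of up to 0.100 and 0.149 (edgeR) when single mice were left out.

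The other 5 tested markers did not pass the test in SAT. Cd9 had 121 ± 26.4 CPM in lean SAT and 193 ± 18.1 CPM in obese SAT (SD, n = 4 each), with no overlap (logFC 0.67, SE 0.22, edgeR adjusted p = 0.0511). Its adjusted p was 0.0195 to 0.0478 with the RLE scaling, DESeq2, the setting legacy=FALSE, the replicate block or limma voom, and 0.00445 with the SAT libraries alone. By edgeR it was 0.0575 with the filter filterByExpr and 0.0516 per entry, and Cd9 was called in 2 of the 8 fits that left out a mouse. With no filter the edgeR adjusted p was 8.21e-05, a description, since that fit had an SE of 0.15. Trem2 had 3, 2, 3 and 0 counts in lean SAT and 13, 6, 10 and 11 counts in obese SAT, again without overlap (logFC 1.74, SE 0.72, edgeR adjusted p = 0.124). Gpnmb had 26.0, 27.3, 31.9 and 44.1 CPM against 45.3, 42.6, 77.9 and 51.8 CPM, overlapping by 1 lean library (logFC 0.77, SE 0.39, edgeR adjusted p = 0.217). Gpnmb passed the edgeR test in SAT with the SAT libraries alone (adjusted p = 0.0197) and without obese replicate 4 (0.0260). With no filter its edgeR adjusted p was 1.54e-05, a description, since that fit had an SE of 0.16. Apoe and Clec7a had logFC values of 0.40 and 0.13, with edgeR adjusted p of 0.395 and 0.908, and Clec7a lay between -0.20 and -0.02 without lean replicate 2, lean replicate 3 or obese replicate 3.

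All 4 obese libraries lay above all 4 lean ones for 6 of the 10 markers in SAT (Trem2, Tyrobp, Itgax, Cd9, Lgals3 and Tm4sf19), beside 9.49% of all features, and for 7 of the 10 in VAT (Tyrobp, Gpnmb, Itgax, Cd9, Lgals3, Tm4sf19 and Clec7a), beside 7.98%. Of these, 5 markers were separated in both tissues, Tm4sf19 among them. Tm4sf19 passed the filter with obese libraries alone, so its separation is a description, and Trem2 entered with obese VAT. The other markers named here pass the filter in lean libraries alone.

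Whether the diet response was larger in VAT than in SAT was tested as the difference between the tissues' responses, with the mouse as a block. It was larger in VAT for 3 of the 9 tested markers, beside 0.853% of all features: Gpnmb by 2.89 on the log2 scale (SE 0.41, edgeR adjusted p = 4.84e-04), Itgax by 1.52 (SE 0.34, adjusted p = 0.0173) and Tyrobp by 1.04 (SE 0.24, adjusted p = 0.0258). Without the block for the mouse, Itgax had an edgeR adjusted p of 0.0506, and with limma voom and the mouse as a random effect an adjusted p of 0.0549, while the other 2 passed in both. Gpnmb was called in all 8 fits that each left out a mouse (2.37 to 3.38), and it alone was called without lean replicate 4 or without obese replicate 4. The call of Tyrobp was also lost without obese replicate 2 (edgeR adjusted p = 0.0600).

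Lgals3 differed by 1.42 (SE 0.38, edgeR adjusted p = 0.0530), and its adjusted p was below 0.05 in 5 of the other settings, DESeq2 among them (0.0124). Trem2 and Tm4sf19, with a larger logFC in VAT but few counts in lean mice, had differences of 1.18 (SE 1.17) and 1.19 (SE 1.03) with edgeR adjusted p of 0.695 and 0.644, so the counts do not resolve whether their responses differ between the tissues. The Cd9 difference was 0.21 (SE 0.24, adjusted p = 0.738), that of Clec7a 1.02 (SE 0.77, adjusted p = 0.590) and that of Apoe -0.06 (SE 0.38, adjusted p = 0.969), all by edgeR.

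**Figure D2:**
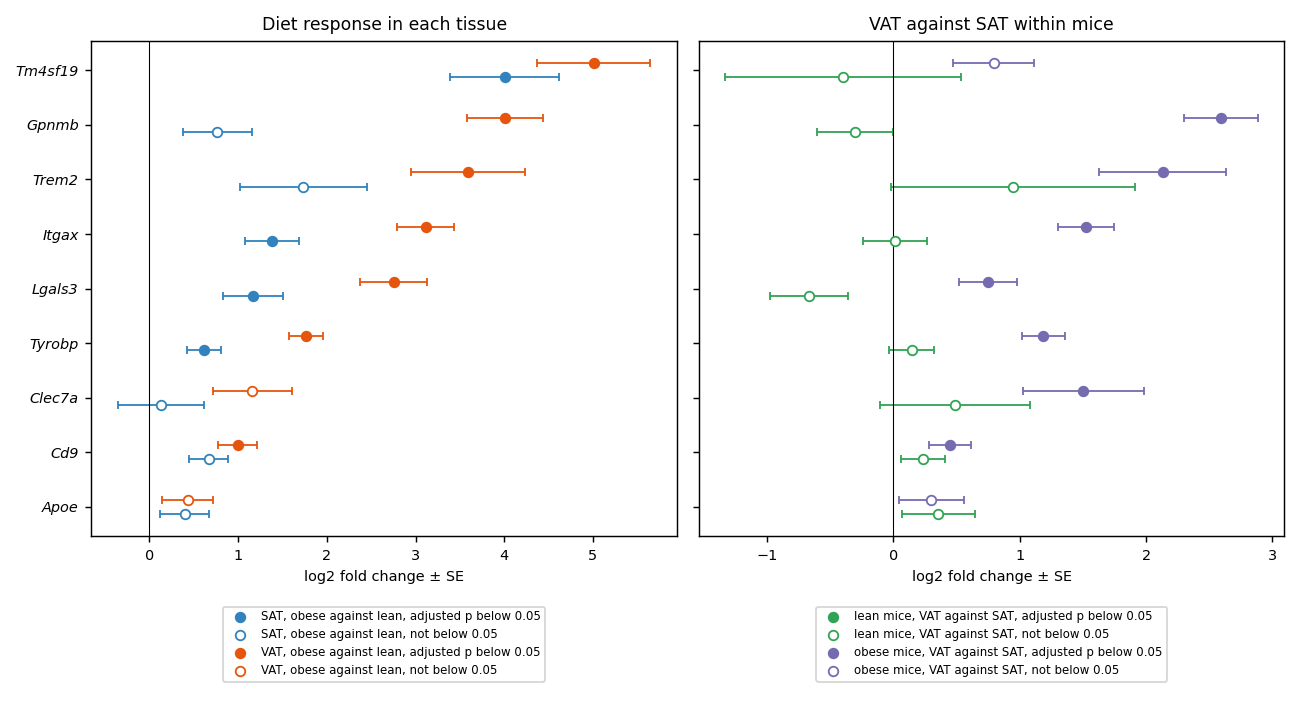
Log2 fold change (horizontal axis) with its SE for the 9 tested markers (rows), with filled points for an edgeR adjusted p below 0.05 and open points otherwise. Left, obese against lean mice in SAT (blue) and VAT (orange), with every VAT point to the right of its SAT point. Right, VAT against SAT within lean mice (green), all open, and within obese mice (purple), where 7 points are filled.

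Between the tissues of the same lean mice, none of the markers differed at an adjusted p below 0.05 by edgeR, DESeq2 or limma voom, while 15.9% of all features did by edgeR. At an unadjusted p below 0.05 there was 1, Lgals3, which was lower in VAT (logFC -0.67, SE 0.31, edgeR adjusted p = 0.156). Gpnmb had 32.3 ± 8.27 CPM in lean SAT and 26.5 ± 5.51 CPM in lean VAT (SD, n = 4 each), Tyrobp had 39.02 ± 10.4 and 41.2 ± 2.82, and Itgax had 18.0 ± 9.29 and 16.5 ± 3.65.

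In obese mice 7 of the 9 tested markers were higher in VAT than in SAT, beside 16.3% of all features. The logFC was 2.59 for Gpnmb (edgeR adjusted p = 9.61e-07), 2.13 for Trem2 (0.00273, a description, since it entered the test through obese VAT), 1.53 for Itgax (2.31e-05), 1.504 for Clec7a (0.0208), 1.19 for Tyrobp (1.79e-05), 0.75 for Lgals3 (0.0170) and 0.45 for Cd9 (0.0476). Tm4sf19 (0.79, edgeR adjusted p = 0.0668) and Apoe (0.30, 0.403) did not pass. Without obese replicate 4 the count was 3 markers (Gpnmb, Itgax and Tyrobp), and without the block for the mouse it was 5, with Lgals3 and Cd9 lost. These obese libraries are the same ones that enter the diet comparisons.

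Ordered by mean level, obese VAT was the highest group for all 10 markers. Obese SAT came next for 8 of them, except Spp1 and Clec7a. For these 8, the libraries of obese SAT and obese VAT did not overlap for Trem2, Tyrobp, Gpnmb and Itgax, and overlapped for Cd9, Lgals3, Tm4sf19 and Apoe. The lean groups of SAT and VAT overlapped for every marker.

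Obese VAT replicate 4 was the highest obese VAT library for 8 of the 10 markers. Relative to the mean of replicates 1 to 3, it was 4.69 times as high for Gpnmb, 2.22 for Cd9, 2.08 for Itgax, 2.04 for Trem2, 1.78 for Tyrobp and 1.65 for Tm4sf19, but 1.04 for Lgals3. In the same library the pan-macrophage list summed to 6771 CPM, the resident macrophage list to 1600 CPM and the dendritic cell list to 65.0 CPM, each the highest of the group. The osteoclast list summed to 473 CPM against a median of 132 CPM in the group, the T cell list to 52.7 against 31.8, and the adipocyte list to 7814 CPM, the lowest of the group. Their part in the marker levels was not tested. All 7 markers that rose in VAT passed the edgeR test without this mouse, as they did in each of the 8 fits that left out a mouse.

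**Figure D3:**
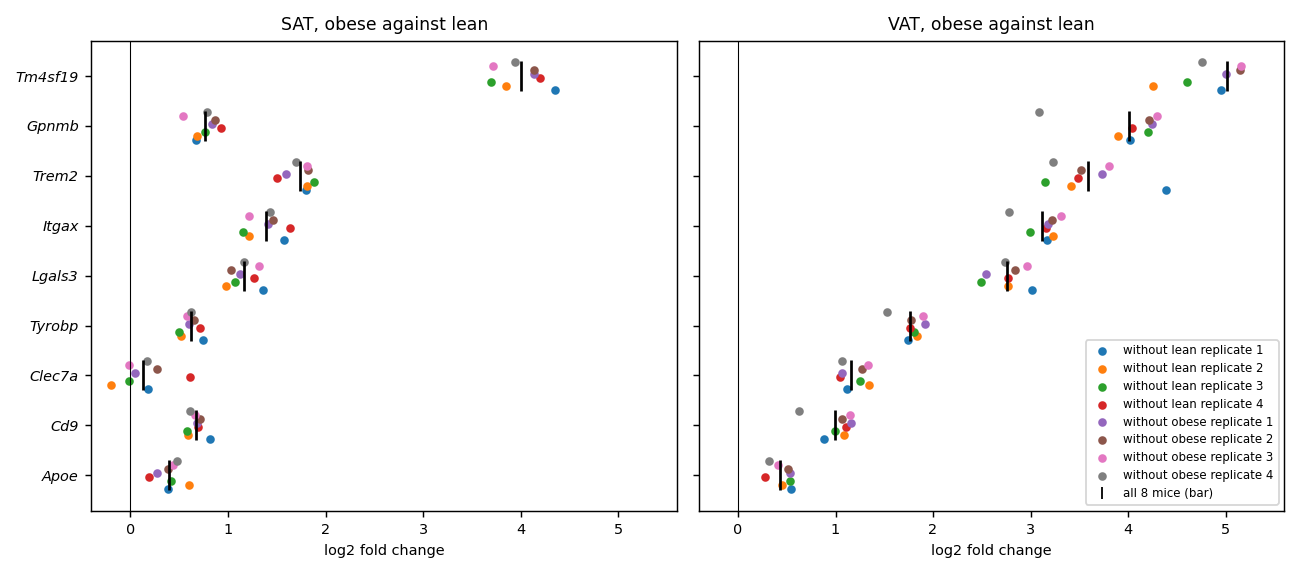
Log2 fold change between obese and lean mice (horizontal axis) of the 9 tested markers (rows) in SAT (left) and VAT (right), with a coloured point for each fit that left out 1 mouse and a black bar for all 8 mice. For Gpnmb in VAT the grey point without obese replicate 4 lies at 3.08, left of the bar at 4.01. The VAT value of Tm4sf19 without lean replicate 4 is not drawn, since its remaining lean libraries are at 0.

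Genes that mark macrophages in general rose too. Of 12 pan-macrophage genes (10 tested), 5 rose in SAT and 8 in VAT, beside 6.35% and 6.88% of all features. Their median logFC was 0.61 and 1.20. Their response differed between the tissues for 1 of the 10, C1qb, which was larger in VAT by 0.80 (edgeR adjusted p = 0.0119), and by DESeq2 for 3 (C1qb, Cd68 and Lyz2). Cd68, a lysosomal glycoprotein of macrophages, rose by 1.43 in SAT and 2.32 in VAT, Csf1r, the receptor for the macrophage growth factor, by 0.80 and 0.87, and the complement gene C1qb by 0.63 and 1.44. The summed CPM of the list was 1124 to 1659 in lean SAT and 1843 to 2535 in obese SAT. In VAT it was 2039 to 2720 in lean and 4677 to 6771 in obese mice. No gene of the list was at 0 over a whole group, but the untested ones had group means of at most 0.497 CPM. Lyz2 made up most of the sum, with means of 817 CPM in lean SAT, 1237 in obese SAT, 1444 in lean VAT and 3373 in obese VAT.

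Markers were therefore also described as a percentage of this summed CPM in the same library, with no test. In VAT all 4 obese libraries stayed above all lean ones for 4 of the 9 markers, beside 0.599% of all features: Tm4sf19 (0.00852% in lean and 0.125% in obese mice), Gpnmb (1.15% ± 0.372 and 7.11% ± 5.44, or 4.396% in obese VAT without replicate 4), Itgax (0.695% and 2.50%) and Tyrobp (1.76% and 2.52%). Tm4sf19 passed the filter with obese libraries alone, so its place here is a description. For Trem2, Lgals3, Cd9, Apoe and Clec7a the libraries overlapped. Cd9 had 5.95% ± 1.34 in lean VAT and 4.98% ± 1.39 in obese VAT, and Apoe had 0.215% ± 0.0743 and 0.113% ± 0.0250 (SD, n = 4 each).

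In SAT the obese libraries stayed above the lean ones for 3 markers, beside 1.11% of all features: Tm4sf19 (0.0170% and 0.174%), Itgax (1.25% and 2.09%) and Trem2 (0.0159% and 0.0363%). Tm4sf19 is a description here too. Trem2 had 0 to 3 counts in the lean SAT libraries and was separated narrowly, with 0.0255% in lean replicate 3 and 0.0270% in obese replicate 3. Tyrobp and Gpnmb kept nearly the same ratio, 2.78% ± 0.470 and 2.73% ± 0.186 for Tyrobp and 2.33% ± 0.492 and 2.45% ± 0.441 for Gpnmb (SD, n = 4 each). With Csf1r alone as the reference, Itgax overlapped in SAT, and with the list without Lyz2 and Cd68, Tyrobp overlapped in VAT. Without lean replicate 1, 6 markers were separated in VAT.

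**Figure D4:**
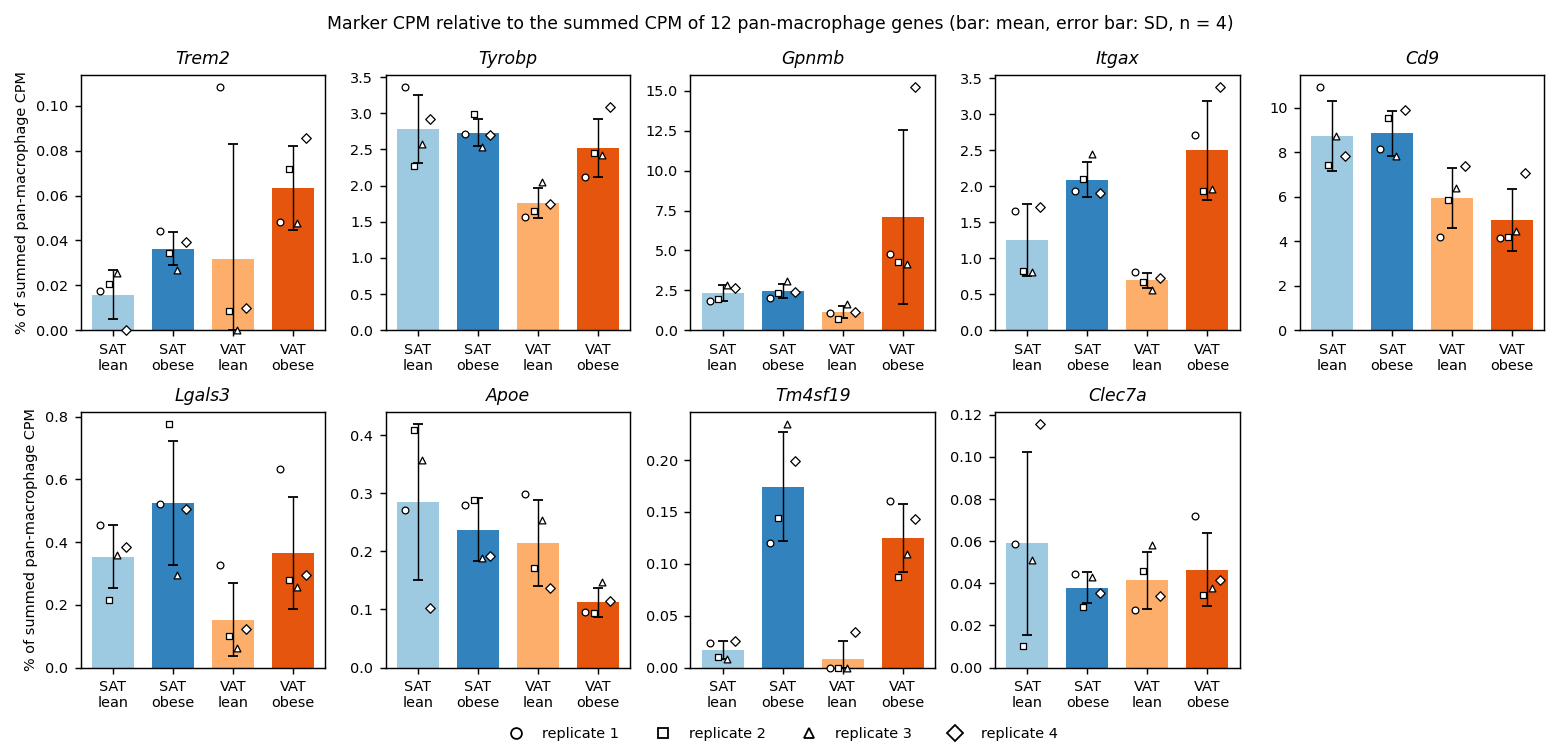
CPM of each of the 9 tested markers as a percentage of the summed CPM of 12 pan-macrophage genes in the same library (vertical axes start at 0 and differ between panels), with bars for the mean, error bars for the SD (n = 4, stopped at 0) and a symbol per replicate. Gpnmb, Itgax, Tyrobp and Tm4sf19 sit higher in all obese VAT libraries than in lean VAT, while Cd9 overlaps between the diets in both tissues.

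A part of the genes that act with or downstream of Trem2 and Clec7a rose as well. Of 18 such genes (12 tested), 4 rose in SAT and 4 in VAT, beside 6.35% and 6.88% of all features. Their median logFC was 0.79 and 1.11. Between the tissues their response differed for none by edgeR or DESeq2 and for 1 at an unadjusted edgeR p below 0.05. Syk, the kinase that both receptors recruit, rose by a logFC of 0.97 in SAT (edgeR adjusted p = 0.0263) and 1.25 in VAT (adjusted p = 0.00352). Plcg2, the phospholipase of this pathway, rose by 0.97 (adjusted p = 0.0208) and 1.22 (adjusted p = 0.00337). Adam10, a protease that can shed Trem2, and Nr1h3, the sterol-sensing receptor LXR alpha, rose in SAT by 0.81 and 0.77, with 0.47 and 0.30 in VAT that did not pass by edgeR or DESeq2. Blnk, an adaptor of Syk that B cells also use, and Spi1, which codes for PU.1, rose in VAT by 2.00 and 1.06, with 1.06 and 0.63 in SAT that did not pass by edgeR, while DESeq2 called Blnk there and so 5 genes of the list in SAT. In SAT the call of Syk was lost in 3 of the 8 fits that left out a mouse, that of Nr1h3 in 5 and that of Plcg2 without lean replicate 2, and in VAT that of Spi1 was lost without obese replicate 4.

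Among 26 genes of lipid handling and lysosomes linked to these macrophages (24 tested), 14 rose and 1 fell in SAT, and 13 rose and 1 fell in VAT. Among all features 6.35% rose and 5.25% fell in SAT, and 6.88% rose and 5.28% fell in VAT. Cd68 is in this list and in the pan-macrophage list, so the counts of both lists share it. The gene that fell was Lpl, the lipoprotein lipase, in both tissues (logFC -0.40 and -0.63, edgeR adjusted p = 0.0241 and 8.62e-04). Abcg1, a cholesterol exporter, rose by 1.299 in SAT and 1.60 in VAT. Plin2, a coat protein of lipid droplets, rose by 1.35 in SAT and 0.97 in VAT, Capg, an actin-capping protein, by 0.93 and 1.85, and Msr1, a scavenger receptor, by 0.73 and 1.42. Ctsd, a lysosomal protease, rose by 0.89 in SAT and had 0.40 in VAT (edgeR adjusted p = 0.0653), where DESeq2 called it. In VAT DESeq2 called 16 genes of the list and edgeR 14. The list holds Fabp4, Cd36, Plin2 and Lpl, which adipocytes express as well, and its summed CPM (65001 to 93179 in SAT) is not a macrophage level. By edgeR 1 gene of the list, Cd36, the fatty acid translocase, differed in response between the tissues (-0.76, VAT minus SAT, edgeR adjusted p = 0.0372, called in 3 of the 8 fits that left out a mouse), and by DESeq2 3 did.

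Other cell types moved with the diet in VAT as well. Of the tested genes, 3 of 5 rose for B cells, 3 of 4 for T cells and 3 of 6 for dendritic cells. For resident macrophages 4 of 8 rose, for osteoclasts 2 of 4 and for neutrophils 1 of 2. Of the 8 adipocyte genes 3 fell (Lipe by 0.70, Adipoq by 0.62 and Plin1 by 0.61). Among all features 6.88% rose and 5.28% fell in VAT. Cd8a, Lck and Ccr7 passed the filter only with obese VAT libraries, so their calls are descriptions. Of the 3 B cell genes, Jchain and Cd79a were called in 5 and Cd79b in 4 of the 8 fits that left out a mouse, and DESeq2 called none of them (adjusted p = 0.0508 to 0.0868). DESeq2, run after the same filter, called the T cell, dendritic cell and neutrophil genes that rose. With a mouse left out, of these Cd3g was called in 7 fits, Lck and Xcr1 in 5, Cd8a in 4, S100a8 in 3, Flt3 in 2 and Ccr7 in all 8. Among the adipocyte genes, Lipe kept its call in all 8 fits that left out a mouse, Adipoq in 7 and Plin1 in 2. In SAT 3 genes rose for resident macrophages (Mrc1, called in all 8 fits that left out a mouse, Folr2 in 4 and Cbr2 in 3), 1 rose (Atp6v0d2) and 1 fell (Acp5) for osteoclasts, and none of the 25 tested genes of B cells, T cells, dendritic cells, neutrophils and adipocytes passed the edgeR test (2 at an unadjusted p below 0.05, and 1, Cd3g, by DESeq2). The dendritic cell list, whose cells also express Itgax, summed to 39.6 to 48.7 CPM in lean VAT and 39.6 to 65.0 CPM in obese VAT. The B cell list summed to 107 to 720 CPM in lean VAT and 636 to 1769 CPM in obese VAT, and the T cell list to 10.9 to 16.03 and 25.5 to 52.7 CPM. The response differed between the tissues (VAT minus SAT, edgeR) for Jchain of the B cell list by 2.15 (adjusted p = 0.0406, called in 2 of the 8 fits that left out a mouse), and for Lipe and Plin1 of the adipocyte list by -0.67 and -0.69 (adjusted p = 0.0251 and 0.0312, called in 4 and 1 of these fits). The part of these cell types in the marker levels was not tested.

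The osteoclast list held a gene that rose in both tissues. Atp6v0d2, a proton pump subunit of osteoclasts and macrophages, rose by 2.11 in SAT and 3.66 in VAT, and Ctsk, a collagen-degrading protease, rose by 2.03 in VAT, or by 1.18 without obese replicate 4. The Ctsk response was larger in VAT than in SAT by 1.60 (edgeR adjusted p = 0.00983, called in all 8 fits that left out a mouse), and DESeq2 called this difference for Atp6v0d2 as well. Acp5, the defining acid phosphatase, fell by 0.83 in SAT, a call lost without lean replicate 3 or obese replicate 3. Summed CPM of this list was 43.3 to 62.8 in lean VAT and 115 to 473 in obese VAT, with 2 of its 8 genes at 0 in both groups. Of 17 tested genes of progenitors and stroma, mesothelium, endothelium and skeletal muscle, none passed the test of the diet in either tissue by edgeR or DESeq2 (1 in SAT and 2 in VAT at an unadjusted edgeR p below 0.05). Of 6 tested genes of the intestinal epithelium, 2 passed the test as lower in obese VAT and none in SAT. Muc2 did not pass it without lean replicate 2, obese replicate 3 or obese replicate 4, and Zg16 is a description, since it passed the filter through lean VAT alone and left the test in 3 of the 8 fits. Of 3 tested genes of the exocrine pancreas, 1, Cela1, rose in both tissues, while the median logFC was -0.59 in VAT. The other 5 genes of this list had mean levels of at most 0.350 CPM in SAT, where Cela1 had 107.9 and 187 CPM, and of 0.391 to 1.68 CPM in lean VAT and 0.104 to 0.652 CPM in obese VAT.

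Across the 16 libraries, log2 CPM of Gpnmb had a Pearson correlation of 0.95 with Tyrobp and 0.91 with Itgax, but 0.38 with Apoe, and Trem2 had 0.80 with Lgals3 and 0.43 with Clec7a. The genes outside the markers most like Gpnmb were Atf3 (0.96), a stress-induced transcription factor, Cd300c2 (0.95), Slc15a3 (0.94), Fcer1g (0.94) and Cd300ld (0.93), and those most like Trem2 were Bcl2a1b (0.95), Clec4a3 (0.92), Ndc80 (0.91), Cxcr4 (0.91) and Zc3hav1 (0.90). Mean Atf3 was 13.8 CPM in lean SAT, 25.3 in obese SAT, 15.5 in lean VAT and 89.3 in obese VAT. The points share the diet groups, the mice and the depth of each library, so these values describe the pattern over groups.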

How the data were processed

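The authors trimmed paired-end reads (Trim Galore), aligned them to GRCm39 with HISAT2 2.2.0 and counted RefSeq features with HTSeq 0.13.5; strand setting and handling of shared reads are not given in the sources used here. The deposited counts (16 columns) are not normalized, and the deposited CPM (16 columns) equal counts scaled to the library total. Counts were summed per symbol and tested with edgeR 4.0.16 in R 4.3.3: TMM, CPM above 1 in at least 3 of 16 libraries, quasi-likelihood test (legacy=TRUE), Benjamini-Hochberg over 12186 features, called at adjusted p below 0.05, with a log2 fold change of 1.5 given beside it. SE is the absolute log2 fold change over the square root of F.

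Diets were compared with 4 group means in 1 fit. Tissues and the difference of responses had the mouse as a block, since SAT and VAT came from 1 mouse. Deviations from group means correlated by -0.0015 to 0.175 (median 0.0765) in the 8 same-mouse pairs and by -0.155 to 0.117 (median -0.0373) in 24 others. Lean and obese libraries of the same number, from different mice, had a median of 0.0675, so these values do not single out the mouse. Mice were separate animals, with 1 library per tissue.

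The members and lists were chosen with earlier results of these data known. Named are all members, from each other list at most 4 called genes per diet comparison with the smallest adjusted p, and the 5 genes with the highest correlation (log2 CPM, prior count 2) with Trem2 and with Gpnmb. Called list genes of the tissue difference, Lpl, Cd3g and Lyz2 lie outside this rule and were named after their values were seen. Lists were those for Trem2 and Clec7a signaling, lipid handling and lysosomes, and the cell types given in the report. Floors from 3 counts (95% limit for a count of 0) cover counting error only.

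Alternatives were each entry tested alone, RLE scaling, no filter on low counts, filterByExpr, DESeq2 1.42.0, legacy=FALSE, the 8 libraries of a tissue alone, a replicate block or none, voom of limma 3.58.1 with a random effect for the mouse, other macrophage references and each mouse left out. The tests were tested on simulated data. Tables and figures were made with Python 3.11.15, pandas 2.3.3 and matplotlib 3.10.9.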

Additional observations from a re-analysis of the deposited data

Results flagged for a closer look

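Single libraries stood apart from the other 3 of their group in 8 of the 40 marker groups (Dixon's test at 95%). In 4 of them, 3 for Spp1 and 1 for Tm4sf19, the other 3 libraries are listed at 0, so that any count stands apart. Chance meets the test in about 1 of 20 groups, a rate that does not hold for these 4. In obese VAT these were replicate 4 for Gpnmb (1033 CPM) and Cd9 (478 CPM). In lean VAT they were replicate 1 for Trem2 (2.66 CPM from 4 counts), replicate 4 for Tm4sf19 (0.768 CPM from 7 counts) and replicate 4 for Spp1 (0.219 CPM from 2 counts). In SAT they were lean replicate 4 for Trem2 (0 CPM), and lean replicate 1 (0.0831 CPM) and obese replicate 4 (0.0775 CPM) for Spp1, each from 1 count.

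The response to diet differed between the tissues for 3 markers, all larger in VAT by edgeR with the mouse as a block: Gpnmb by 2.89, Itgax by 1.52 and Tyrobp by 1.04 on the log2 scale.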

How the results depend on the processing

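The count of markers that rose in VAT was 7 to 8 under the other settings and 7 in each fit without a mouse. In SAT it was 4 to 6, and 2 to 5 without a mouse. For the difference between tissues it was 2 to 4, and 1 to 4 without a mouse. For VAT against SAT it stayed 0 in lean mice, and in obese mice it was 5 to 8, and 3 to 8 without a mouse. Separation relative to the pan-macrophage genes held for 2 to 3 markers in SAT and 3 to 4 in VAT with other references, and for 3 to 4 and 4 to 6 without a mouse. With the filter removed, all 10 markers entered and the SE of Gpnmb in VAT shrank from 0.43 to 0.17, so the calls of that fit are descriptions.

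Replicate numbers are shared between diets by different mice, and the labels do not say whether a number stands for anything else. Deviations of mice with the same number correlated by -0.0928 to 0.172 (median 0.0675), close to the median within a mouse. A factor tied to the number was not tested apart from the mouse. With the replicate numbers as a block 5 markers rose in SAT and 7 in VAT. Without the mouse block, the difference between tissues was called for 2 markers, VAT against SAT for 0 in lean and 5 in obese mice.

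Over 735 single values, 660 kept direction and side of the threshold. Direction turned in 22, none called under either setting. Values per entry are those of a gene's entry with the most counts, and other Apoe entries turned as well, none called (NM_001305844 by -0.36 for SAT diet and -0.44 for lean VAT against SAT, and 3 entries by 0.55 to 0.89 for the difference). Lean VAT against SAT turned for Itgax (-0.0055 per entry, -0.0033 by DESeq2, -0.14 without the block, -0.25 to 0.30 without a mouse), Trem2 (-0.095 by voom, -0.50 to 2.04), Tyrobp (-0.0084 to 0.29) and Clec7a (-0.16 to 1.25). The difference turned for Apoe (0.092 with legacy=FALSE, 0.033 without the block, 0.064 by voom, -0.31 to 0.17 without a mouse) and Cd9 (-0.025 to 0.40). Obese VAT against SAT turned for Apoe (-0.29 per entry), and SAT diet for Clec7a (-0.20 to 0.61). The cause was not tested.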
